A study of Mus musculus with 7 samples.

Results

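Duodenal absorption of iron and copper was examined through 10 genes, Cybrd1, Slc11a2, Slc40a1, Heph, Fth1, Ftl1, Tfrc, Epas1, Slc31a1 and Atp7a. They were taken by symbol from a list of known roles, and all 10 were found among the 14795 genes measured by RNA sequencing. The comparison was between 3 Ppara lox/lox (control) and 4 Ppara I-KO mouse libraries. The labels give the strain as C57BL/6, and the methods a predominantly C57BL6/J background. PPARα, the product of Ppara, is a nuclear receptor for fatty acids. In I-KO mice the Villin-Cre transgene, active in the intestinal epithelium, acted on the floxed Ppara alleles that the lox/lox littermates also carried, without Cre. All were males on a high fat diet (HFD), as the methods describe. Per the labels, food was withdrawn for 6 h and given back for 6 h before the end. The age of these mice is not given in the sources used here. RNA came from duodenal tissue and not from sorted epithelium, so that fewer cells of a type and less RNA per cell cannot be told apart. The libraries are labelled as biological replicates, and a figure legend of the study counts them as mice.

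The duodenum is the main site of iron absorption. Ferric iron of the diet is reduced at the brush border by duodenal cytochrome b (Cybrd1), enters the enterocyte through the divalent metal transporter DMT1 (Slc11a2), and is either stored in ferritin (Fth1 and Ftl1) or exported by ferroportin (Slc40a1) with the help of the copper-dependent ferroxidase hephaestin (Heph). Copper enters through CTR1 (Slc31a1) and is pumped onwards by ATP7A, which also loads copper onto hephaestin. Iron regulatory proteins bind stem-loops called iron responsive elements (IREs) in some of these mRNAs when cell iron is low, and HIF-2α (Epas1) is known to activate transcription of Cybrd1, Slc11a2 and Slc40a1.

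The IREs are the part of these mRNAs through which this post-transcriptional control acts, and those that a strict pattern found are given first. A C, 5 stem bases, the loop letters CAGTG with 1 more base, and 5 bases that pair with the stem (G-C, A-T or G-T) were searched for on the sense strand of the GENCODE M21 transcripts, which lie on GRCm38 (mm10). The pattern matched 7 stretches in 4 of the 10 genes, and at least 1 stretch in 1.34% of all 21901 protein-coding genes, whatever the length of their transcripts. The capitals mark the bulged C and the loop, with 6 flanking bases on each side.
Fth1, 5′ UTR, chr19:9982732-9982760, plus strand: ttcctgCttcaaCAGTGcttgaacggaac
Ftl1, 5′ UTR, chr7:45459779-45459807, minus strand: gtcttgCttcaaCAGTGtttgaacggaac
Slc40a1, 5′ UTR, chr1:45925465-45925493, minus strand: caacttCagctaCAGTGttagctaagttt
Tfrc, 3′ UTR, chr16:32631219-32631247, plus strand: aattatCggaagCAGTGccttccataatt
Tfrc, 3′ UTR, chr16:32631598-32631626, plus strand: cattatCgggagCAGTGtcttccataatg
Tfrc, 3′ UTR, chr16:32631663-32631691, plus strand: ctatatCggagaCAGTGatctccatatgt
Tfrc, 3′ UTR, chr16:32631710-32631738, plus strand: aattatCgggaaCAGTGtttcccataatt

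The elements of both ferritins were identical at 26 of 29 positions, whereas that of Slc40a1 was identical to that of Fth1 at 13. The 4 copies that the pattern found in Tfrc were identical to each other at 18 to 25 positions. A pattern this strict may miss further copies in Tfrc. In a 5′ UTR, bound regulatory protein is known to hold back translation, which does not show in an mRNA level, and in the 3′ UTR of Tfrc it is known to protect the mRNA from decay. No stretch of the other 6 genes matched, which says only that this strict pattern is not in their listed transcripts. Transcripts of Slc11a2 and Epas1 are known to carry IREs as well.

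The libraries held between 20745155 and 25865823 reads on the listed genes, and values are CPM (reads scaled to an adjusted library size). Ppara read 53.4, 49.3 and 63.2 CPM in lox/lox and 33.1, 40.6, 47.5 and 69.9 CPM in I-KO. The library labelled I-KO 4 thus lay above all 3 controls, and since the table gives whole genes, this level does not check the deletion. Pancreatic acinar genes (11 of 12 in the table, 5 of them at 0 in some library) were highest in I-KO 1 in 11 of 11 cases, with a sum of 396 CPM against 92.5 in lox/lox 2 and 27.1 to 42.5 in the other 5. Enterocyte markers (10 of 10 in the table, none at 0) summed to 57103 to 67217 CPM in lox/lox and 55755 to 73231 in I-KO. Goblet cell markers (6 of 6, none at 0) summed to 7898 to 9001 CPM in lox/lox and 7593 to 9114 in I-KO, and the 2 red cell markers in the table, of 8 listed, to 6.00 to 10.02 and 3.60 to 12.0 CPM.

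At a threshold of 0.05 on the adjusted p (limma, Benjamini-Hochberg over 13399 genes), 0 of the 10 genes were called, where 0.0299% of all genes tested were. Their adjusted p-values lay between 0.954 and 0.996, and the log2 fold changes (I-KO minus lox/lox, of CPM + 1) between -0.23 and 0.72, with 7 means higher and 3 lower in I-KO. The median was 0.050, beside 0.0017 over all genes tested. Fth1 alone passed an unadjusted p of 0.05, which 4.74% of all genes did (2.32% higher and 2.42% lower in I-KO). Fth1 was also the 1 gene whose groups did not overlap, against 6.19% of all genes (2.91% higher and 3.28% lower in I-KO). The 95% intervals extended by a median of 0.24 to each side on the log2 scale, from 0.21 for Atp7a to 0.90 for Cybrd1. Smaller differences were thus not detectable in most of these genes even before adjustment. After adjustment over all genes larger differences also went uncalled, as for Fth1 with a log2 fold change of 0.30 (limma adjusted p = 0.954).

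**Figure D1:**
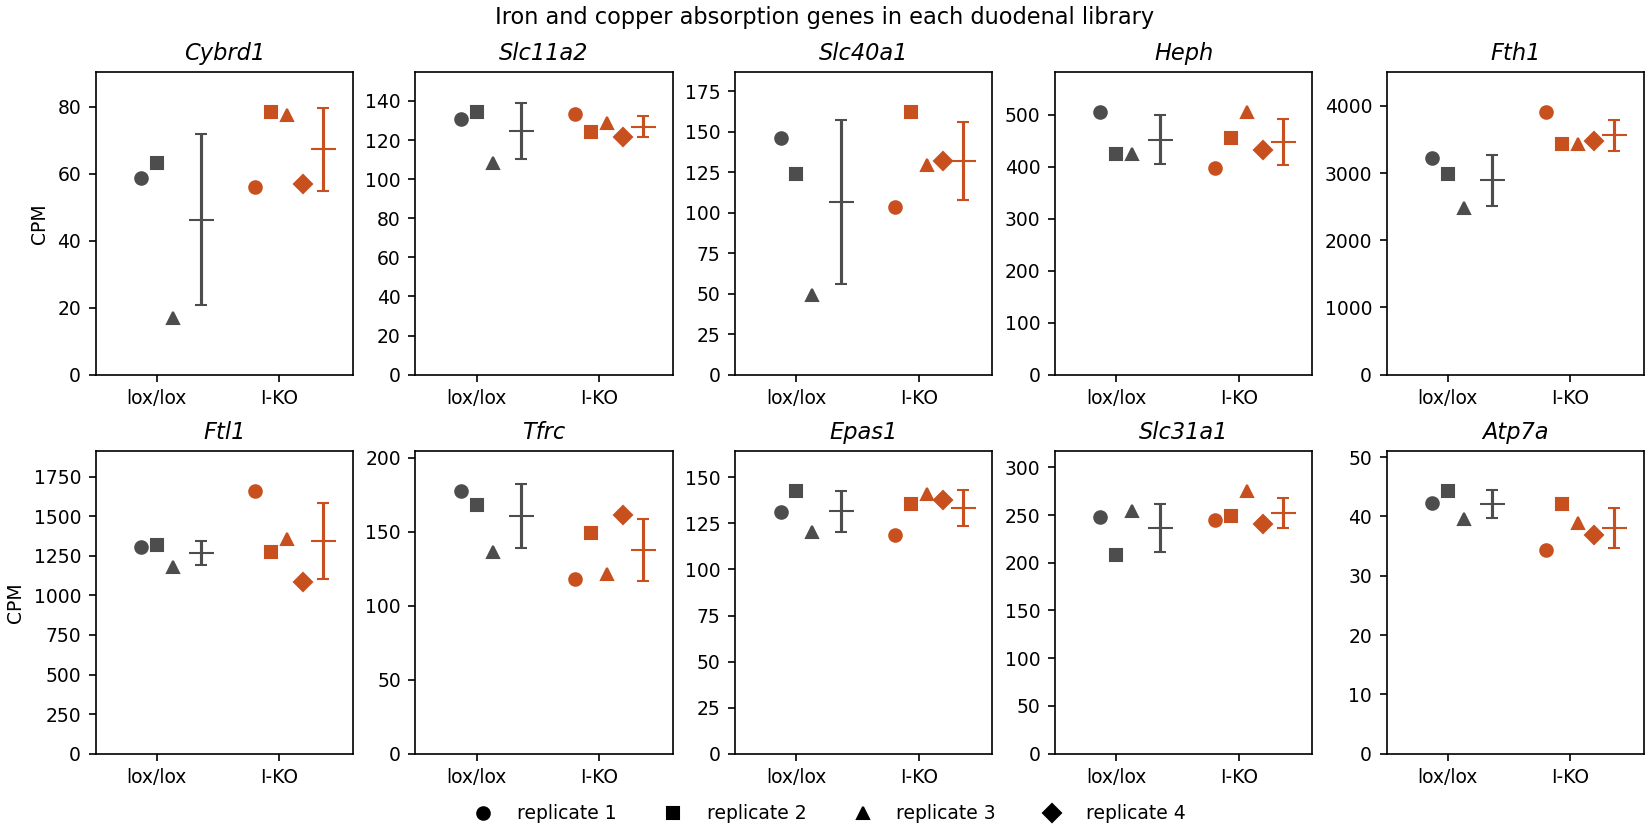
CPM of each of the 10 genes (vertical axes, from 0) in 3 lox/lox (grey) and 4 I-KO (orange) libraries, with marker shapes for replicate numbers and bars for the mean ± SD. The lox/lox 3 triangle lies far below all other libraries for Cybrd1 and Slc40a1, and for Fth1 all I-KO points lie above all lox/lox points.

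Levels between genes are comparable only per length, here as CPM per kb of exon. Fth1 came first with 1858 CPM per kb in lox/lox and 2286 in I-KO, and Ftl1 followed with 1309 and 1389. Heph stood at 75.5 and 74.8 and Slc31a1 at 55.3 and 59.0, each outside the range of its neighbours in both groups. The next levels, Slc40a1 (31.5 and 39.1) and Tfrc (30.9 and 26.5), overlapped in both groups, as did Epas1 (23.8 and 24.2) and Slc11a2 (21.7 and 22.1). Tfrc and Epas1 overlapped in I-KO, whereas in lox/lox the lowest Tfrc value (26.2) lay just above the highest Epas1 value (25.9). Cybrd1 (8.67 and 12.6) and Atp7a (8.56 and 7.75) were lowest, and these overlapped in lox/lox only. The order of the 10 genes was the same in both genotypes.

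Cybrd1 (chr2:71117923-71142926, mm10) was the most variable of the 10 genes. It read 58.7, 63.3 and 16.9 CPM in lox/lox and 56.1, 78.5, 77.5 and 57.0 CPM in I-KO. The control library lox/lox 3 lay far below all others, at 30.2% of the lowest of the other 6, while lox/lox 1 and 2 lay within the I-KO range. About 430 reads stood behind that value, and counting error (Poisson 95% interval) places it between 15.4 and 18.6 CPM. Its mean was 46.3 ± 25.5 CPM in lox/lox (SD, n = 3) against 67.3 ± 12.4 CPM in I-KO (SD, n = 4). On the log2 scale the difference was 0.72 (SE 0.40, 95% interval -0.18 to 1.62, limma adjusted p = 0.954), and the exact two-sided permutation p of the CPM was 0.286. Without lox/lox 3 the log2 fold change was 0.12 (-0.26 to 0.51). The SD of Cybrd1 over the 7 libraries lay at the 99.5th percentile of all genes tested.

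Slc11a2 (chr15:100387898-100425072), the importer that takes over the reduced iron, was nearly level. The 3 lox/lox libraries had 131, 134 and 108 CPM (mean 124.6 ± 14.2 SD), and the 4 I-KO libraries had 133, 124, 128.5 and 121 CPM (mean 126.8 ± 5.29 SD). The groups overlapped, and lox/lox 3 was again the lowest library. The log2 fold change was 0.031 (SE 0.096, 95% interval -0.19 to 0.25, limma adjusted p = 0.986, exact permutation p = 0.83). It turned to -0.066 without lox/lox 3.

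Slc40a1 (chr1:45908068-45926523), the only known cellular iron exporter, followed Cybrd1. It read 146, 124 and 49.3 CPM in lox/lox and 103, 162, 129 and 132 CPM in I-KO. Lox/lox 3 stood at 47.7% of the lowest of the other 6 libraries, and the rest of the controls fell within the I-KO range. Its mean was 106 ± 50.6 CPM in lox/lox (SD, n = 3) against 132 ± 24.1 CPM in I-KO (SD, n = 4), a difference on the log2 scale of 0.43 (SE 0.33, 95% interval -0.32 to 1.18, limma adjusted p = 0.954, exact permutation p = 0.486). Without lox/lox 3 it was -0.046 (-0.44 to 0.35), so the direction rested on that library. The spread of Slc40a1 lay at the 99.0th percentile of all genes tested.

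Heph (chrX:96455359-96574485), the ferroxidase that helps in iron export, read 506, 425 and 424 CPM in lox/lox (452 ± 47.0, SD, n = 3). In I-KO it read 399, 455, 505 and 431 CPM (447 ± 44.9, SD, n = 4). The highest library of each group was nearly equal, and the groups overlapped over most of their range. I-KO minus lox/lox came to -0.014 on the log2 scale (SE 0.11, 95% interval -0.26 to 0.23, limma adjusted p = 0.996, exact permutation p = 0.971). Unlike the other 3 genes of uptake and export, Heph was not lowest in lox/lox 3 but in I-KO 1.

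Fth1 (chr19:9980598-9985098), the ferritin heavy chain that oxidizes iron for storage, was the only gene of the 10 with separate groups. The 3 lox/lox libraries had 3219, 2989 and 2479 CPM (mean 2895 ± 379 SD), and the 4 I-KO libraries had 3914, 3426, 3428 and 3479 CPM (mean 3562 ± 236 SD). All I-KO libraries lay above all lox/lox libraries, a separation in this direction that 2.91% of all genes tested had. The mean was 23.0% higher in I-KO, with a log2 fold change of 0.30 (SE 0.11, 95% interval 0.062 to 0.55, limma adjusted p = 0.954). The exact permutation test gave p = 0.0286 (two-sided), the smallest this design allows, and 0.286 after adjustment over the 10 genes. Without lox/lox 3, the lowest library, the log2 fold change was 0.20 and its 95% interval included 0 (-0.037 to 0.43). Without I-KO 1, the highest library, it was 0.26 (0.0059 to 0.51), and without I-KO 4 it was 0.32 (0.043 to 0.59). Without both acinar-rich libraries, I-KO 1 and lox/lox 2, it was 0.29 and no longer passed an unadjusted p of 0.05. When values were rescaled to column totals, the exact permutation p became 0.0571.

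Ftl1 (chr7:45457944-45459884), the light chain that makes up the rest of the ferritin shell, did not share this separation. Lox/lox 1 to 3 had 1304, 1316 and 1182 CPM (mean 1268 ± 74.2 SD), and I-KO 1 to 4 had 1662, 1271, 1358 and 1086 CPM (mean 1344 ± 240.0 SD). I-KO held both the highest library, I-KO 1, and the lowest, I-KO 4. Between the means the log2 fold change was 0.070 (SE 0.14, 95% interval -0.24 to 0.38, limma adjusted p = 0.976, exact permutation p = 0.686), and without I-KO 1 it was -0.038. Both ferritins were highest in I-KO 1, the library with the most acinar RNA. Macrophage markers (8 of 8 in the table, none at 0) summed to 212 to 285 CPM in lox/lox and 273 to 333 in I-KO, and 7 of the 8 had a higher mean in I-KO. Smooth muscle markers (6 of 6 in the table, none at 0) were highest in I-KO 1 in 6 of 6 cases and lowest in lox/lox 3 in 5 of 6. Fth1 had its extremes in the same libraries. Of all genes tested, 12.6% were lowest in lox/lox 3, and the share highest in I-KO 1 is not given here. The 6 smooth muscle markers are of 1 cell type and are not independent of each other. Their sums were 1063 to 1320 CPM in lox/lox and 1102 to 1550 in I-KO, and 6 of 6 means were higher in I-KO. The part of these cell types in the ferritin levels was not tested. The genome also holds 2 pseudogenes named after Fth1 and 1 named after Ftl1, none of them in the table, and how reads shared with them were counted is not given in the sources used here.

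Tfrc (chr16:32608920-32632794), the transferrin receptor that brings plasma iron into cells at the basal side, read 178, 168 and 136 CPM in lox/lox (161 ± 21.6, SD, n = 3). In I-KO it read 118, 149, 122 and 161 CPM (137 ± 21.0, SD, n = 4). Lox/lox 1 and 2 were the highest libraries and I-KO 1 and 3 the lowest, with lox/lox 3 inside the I-KO range. I-KO minus lox/lox was -0.23 on the log2 scale (SE 0.14, 95% interval -0.54 to 0.091, limma adjusted p = 0.954, exact permutation p = 0.2). It was -0.34 without lox/lox 3 (95% interval -0.67 to -0.0029, limma adjusted p = 0.930) and -0.16 without I-KO 1. Proliferating progenitors, a cell type rich in this receptor, had marker sums (8 of 8 in the table, none at 0) of 536 to 603 CPM in lox/lox and 426 to 626 in I-KO.

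Set against each other within a library, the receptor and the storage protein separated the groups. Tfrc amounted to 5.52%, 5.61% and 5.50% of the CPM of Fth1 in lox/lox (5.54 ± 0.06, SD, n = 3). In I-KO it amounted to 3.02%, 4.35%, 3.55% and 4.63% (3.89 ± 0.74, SD, n = 4). This ratio was formed after the values had been seen, and 33.8% of all genes tested also had a lower ratio to Fth1 in I-KO without overlap, so the separation was not rare among ratios to Fth1.

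**Figure D2:**
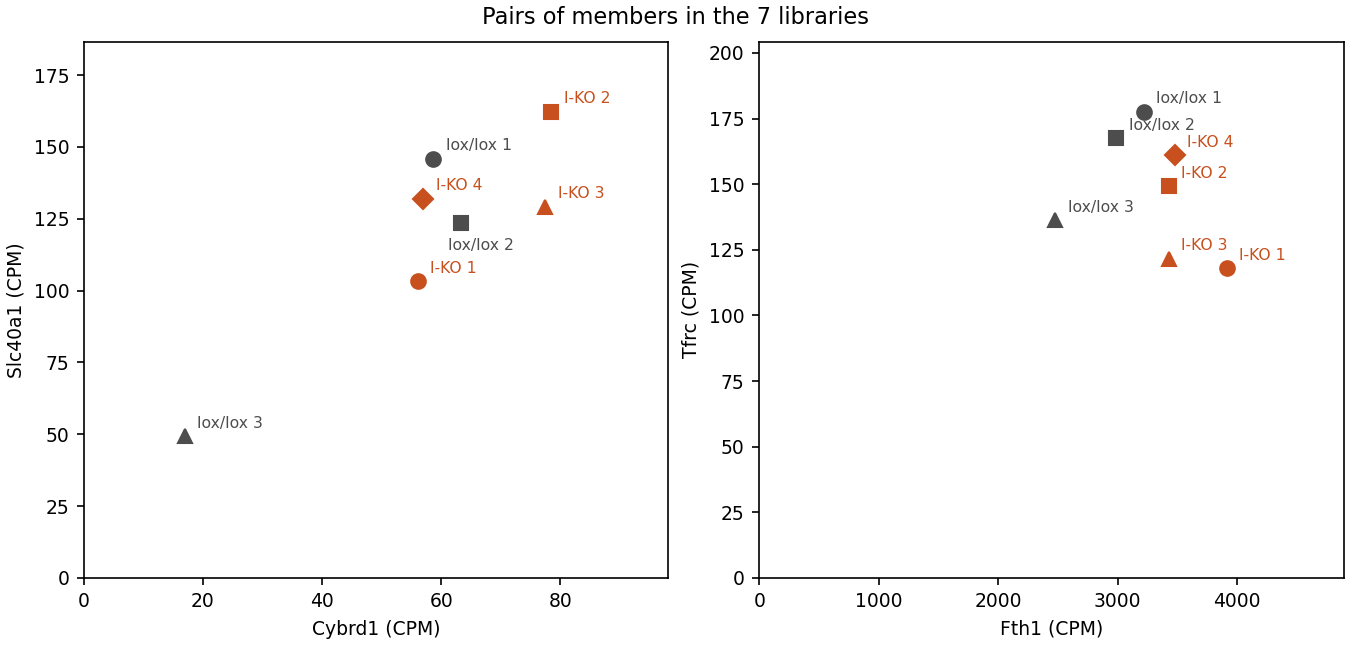
CPM of Slc40a1 against Cybrd1 (left) and of Tfrc against Fth1 (right) in the 7 libraries, with grey for lox/lox and orange for I-KO, each point labelled with its library. On the left lox/lox 3 lies alone near the origin at 16.9 and 49.3 CPM, and on the right the 3 lox/lox libraries lie near 1 line through the origin, with Tfrc at 5.50% to 5.61% of Fth1, above that ratio in all I-KO libraries.

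Epas1 (chr17:86753700-86833410), which encodes HIF-2α, had 131, 143 and 120 CPM in the 3 lox/lox libraries (mean 132 ± 11.2 SD) and 119, 136, 141 and 138 CPM in the 4 I-KO libraries (mean 133 ± 9.78 SD). Neither group stood above the other. The log2 fold change was 0.019 (SE 0.096, 95% interval -0.20 to 0.24, limma adjusted p = 0.992, exact permutation p = 0.8). Endothelial cells also express Epas1, and their markers (7 of 7 in the table, none at 0) summed to 105 to 123 CPM in lox/lox and 118 to 152 in I-KO, highest in I-KO 1. Their part in the Epas1 level was not tested. HIF-2α is controlled mainly through the stability of the protein, which was not measured.

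Of the copper transporters, Slc31a1 (chr4:62360727-62391769) brings copper into the cell. Lox/lox 1 to 3 had 247, 208 and 255 CPM (mean 237 ± 25.3 SD), and I-KO 1 to 4 had 244, 249, 275 and 241 CPM (mean 252 ± 15.7 SD). All I-KO libraries lay above lox/lox 2 and overlapped with the other controls. The log2 fold change was 0.097 (SE 0.098, 95% interval -0.13 to 0.32, limma adjusted p = 0.954, exact permutation p = 0.486), and 0.0063 without lox/lox 2. Slc31a1 overlaps Cdc26 on the opposite strand, and the strand setting of the counting is not given in the sources used here.

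Atp7a (chrX:106027276-106124926), the pump that carries copper out of the enterocyte, read 42.2, 44.4 and 39.6 CPM in lox/lox (42.1 ± 2.38, SD, n = 3). In I-KO it read 34.3, 42.2, 38.9 and 36.9 CPM (38.1 ± 3.30, SD, n = 4). Only I-KO 2 reached into the lox/lox range. The difference on the log2 scale was -0.14 (SE 0.093, 95% interval -0.35 to 0.068, limma adjusted p = 0.954, exact permutation p = 0.114). Atp7a was lowest in I-KO 1, and without that library the log2 fold change was -0.095.

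**Figure D3:**
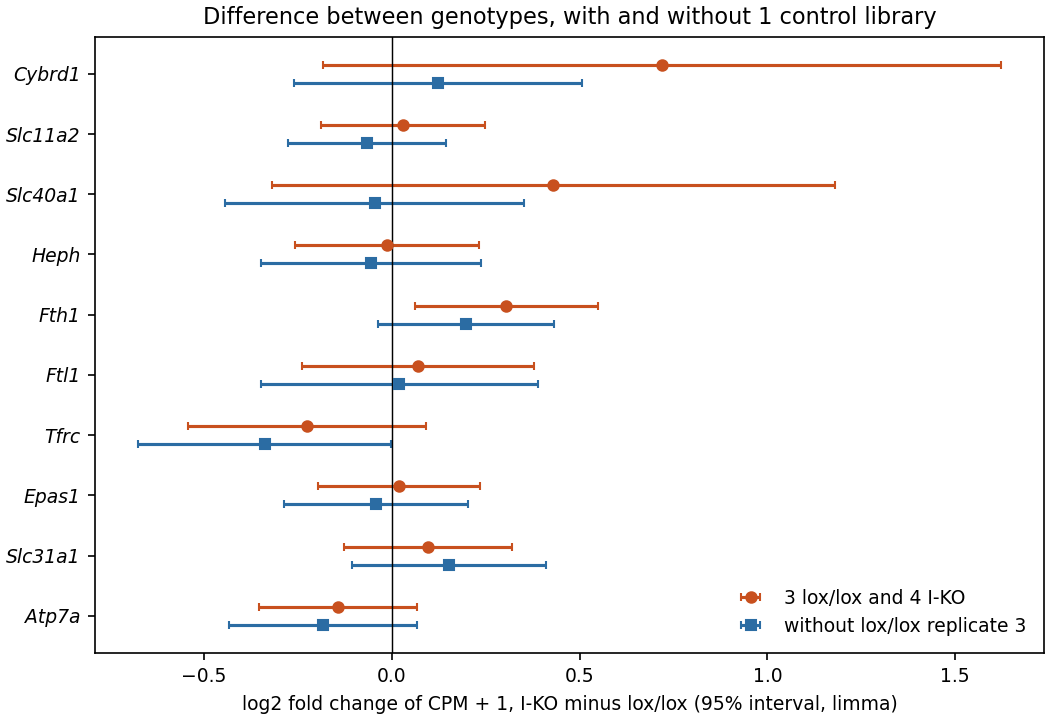
Log2 fold change of CPM + 1 (horizontal axis, I-KO minus lox/lox) with 95% intervals from limma for the 10 genes, in all 7 libraries (orange circles) and without lox/lox 3 (blue squares). Cybrd1 moves from 0.72 to 0.12 and Slc40a1 from 0.43 to -0.046 when this library is left out, and the interval of Fth1 then includes 0.

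Lox/lox 3 was the lowest of the 7 libraries for 4 of the 10 genes, Cybrd1, Slc11a2, Slc40a1 and Fth1, beside 12.6% of all genes tested. I-KO 1 was lowest for 4 others, Heph, Tfrc, Epas1 and Atp7a, beside 19.3% of all genes. Measured as lox/lox 3 minus the mean of the other 6 libraries on the log2 scale, Cybrd1 (-1.87) was 5th lowest and Slc40a1 (-1.40) 8th lowest among the 13399 genes. Besides these, the 8 lowest comprised Mt2 (-3.51), Mt1 (-2.65), Gsta1 (-2.55), Hsd3b3 (-2.36), Pyroxd2 (-1.61) and Akp3 (-1.53). Mt1 and Mt2 were low in all 3 lox/lox libraries, with Mt2 at 6.22, 5.83 and 2.12 CPM against 62.6 to 94.8 CPM in I-KO, so that this measure mostly restates the genotype difference for them. Of the others, Gsta1, Hsd3b3 and Pyroxd2 were about as low in 1 or more other libraries, with Gsta1 at 4.34 CPM in lox/lox 1 and 4.44 in lox/lox 3.

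Cybrd1 and Slc40a1 are known to be highest in the proximal small intestine, and genes of intestinal position were therefore read in lox/lox 3 after its values had been seen. Pdx1, a factor of the proximal duodenum, was lowest in lox/lox 3, and lay at 18.2 to 25.5 CPM in the other 6 libraries. Gata4, which marks duodenum and jejunum, stood at 141 against 154 to 177 CPM. The alkaline phosphatases also lay lowest there, Akp3 at 612 against 1374 to 2068 CPM and Alpi at 2008 against 2690 to 3719 CPM. Akp3 had already been named for its low value in this library. Alpi was among 3 of the 10 enterocyte markers that were lowest in lox/lox 3. Fabp1 and Fabp2, of the same markers, were instead highest there of all 7 libraries, at 4228 and 4032 CPM. Slc10a2, the bile acid transporter of the ileum, lay between 0.19 and 0.51 CPM in all 7 libraries. The part of the position of the tissue piece in the low Cybrd1 and Slc40a1 of lox/lox 3 was not tested.

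Across the 7 libraries, 7 relations between pairs of the 10 genes were computed on log2 values, and 0 passed after adjustment by exact permutation, with a smallest adjusted p of 0.129. Cybrd1 and Slc40a1 had a Pearson r of 0.95 (exact permutation p = 0.0185, adjusted p = 0.129) and a Spearman rho of 0.71 (exact permutation p = 0.0881, adjusted p = 0.617). With the genotype means removed r was again 0.95, but without the 2 libraries farthest from the median of Cybrd1, lox/lox 3 and I-KO 2, it was 0.19. Without lox/lox 3 alone r was 0.53. The high r thus rested mainly on lox/lox 3, and leaving out I-KO 2 as well lowered it further. Slc11a2 had an r of 0.80 with Cybrd1 (rho 0.25) and 0.71 with Slc40a1 (rho -0.036), which became 0.038 and -0.78 without the 2 farthest libraries. Both ferritins had an r of 0.52 (rho 0.32), and Tfrc had an r of -0.26 with Fth1 (rho -0.46) and 0.10 with Slc11a2 (rho 0.14). Slc31a1 and Atp7a had an r of -0.39 (rho -0.14). Without the 2 farthest libraries of each pair, Fth1 and Ftl1 had an r of 0.65 and Tfrc and Slc11a2 of 0.068, whereas the sign turned for Tfrc with Fth1 (0.56) and for Slc31a1 with Atp7a (0.54).

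The 5 genes whose log2 values were most like those of Cybrd1 over the 7 libraries, by Pearson r, were Cnih (0.98), Bre (0.96), Paqr8 (0.96), Pacsin2 (0.96) and Sh3d21 (0.95). Slc40a1 came 7th among all genes tested. Each of the 5 was lowest in lox/lox 3, with Cnih at 50.9 CPM there and at 60.4 to 64.0 CPM in the other 6 libraries.

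The other genes of iron, heme, copper and oxygen handling were taken from 8 lists of 64 genes, of which 59 were in the table and 58 were tested. As for the 10 absorption genes, 0 were called, the smallest adjusted p by limma being 0.782. Of the 58 genes, 31 had a higher and 27 a lower mean in I-KO, and their median was 0.0088 on the log2 scale. At an unadjusted p of 0.05, 1 was higher and 3 were lower, or 6.90% beside 4.74% of all genes tested. The groups did not overlap in 3 genes, or 5.17% beside 6.19%.

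Heme handling held 2 of these genes, out of 10 tested with 5 means higher and 5 lower. Abcg2, an exporter at the apical membrane that carries porphyrins among other substrates, read 193, 181 and 179 CPM in lox/lox and 152, 156, 156 and 135 CPM in I-KO. The groups were apart, with a log2 fold change of -0.30 (SE 0.085, limma adjusted p = 0.822). Mfsd7c, the older symbol of the heme-transporter relative Flvcr2, was a low gene with 2.96, 3.09 and 1.73 CPM in lox/lox and 1.01, 1.81, 1.06 and 1.16 CPM in I-KO. Its groups overlapped, with a log2 fold change of -0.66 (SE 0.17, limma adjusted p = 0.782). Hmox1, the inducible heme oxygenase, read 4.44, 2.96 and 2.83 CPM in lox/lox and 4.93, 3.34, 3.55 and 3.31 CPM in I-KO, with a log2 fold change of 0.12 (limma adjusted p = 0.963) that was 0.015 without I-KO 1, 0.030 without lox/lox 3, 0.054 without lox/lox 2 and 0.28 without lox/lox 1. Blvrb, a biliverdin reductase picked out after its values were seen, lay between 18.7 and 19.1 CPM in lox/lox and between 19.7 and 23.2 CPM in I-KO, with a log2 fold change of 0.18 (limma adjusted p = 0.954).

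Of the 9 copper chaperones, pumps and cuproenzymes, 5 means were higher and 4 lower, with a median of 0.023. Sod1, the copper-zinc superoxide dismutase, read 340, 362 and 343 CPM in lox/lox and 323, 307, 310 and 298 CPM in I-KO. These groups did not overlap, and the log2 fold change was -0.17 (SE 0.075, limma adjusted p = 0.954). With any 1 library other than I-KO 1 left out, it no longer passed the unadjusted threshold. The copper chaperones and the second copper pump, Atp7b, did not pass an unadjusted p of 0.05.

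Among 7 HIF-responsive genes outside iron transport, 6 means were higher in I-KO and 1 lower, with a median of 0.055. Ankrd37 passed the unadjusted threshold with 19.9, 13.2 and 12.9 CPM in lox/lox and 24.2, 22.7, 26.1 and 15.5 CPM in I-KO. Lox/lox 1 lay within the I-KO range, and the log2 fold change was 0.50 (SE 0.20, limma adjusted p = 0.954). It was 0.40 without lox/lox 3 and 0.45 without I-KO 1, and passed the unadjusted threshold with 1 library left out only where that was lox/lox 1 or I-KO 4. Of the 7 HIF subunits and oxygen-dependent regulators, 5 means were higher and 2 lower, and their log2 fold changes lay between -0.095 and 0.076. Hif1a, which had the largest of these, read 85.1, 73.3 and 98.1 CPM in lox/lox and 85.0, 78.0, 75.3 and 79.8 CPM in I-KO (limma adjusted p = 0.959).

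No gene of the other 4 lists passed an unadjusted p of 0.05. Ncoa4, the receptor that delivers ferritin to lysosomes and the gene of largest difference among 6 of cellular iron sensing and ferritin turnover, read 467, 422 and 283 CPM in lox/lox and 345, 478, 443 and 431 CPM in I-KO. The lowest library was again lox/lox 3, and the log2 fold change was 0.14 (limma adjusted p = 0.963), or -0.077 without it. Aco1 and Ireb2, which encode both iron regulatory proteins, were tested in this list, whose median was -0.0018 with 3 means higher and 3 lower. Among 7 genes of iron reduction, oxidation and other metal-ion uptake, 1 mean was higher and 6 were lower, led by Steap4 (2.27, 1.33 and 1.26 CPM in lox/lox and 1.05, 0.67, 0.90 and 1.74 CPM in I-KO, a log2 fold change of -0.33, limma adjusted p = 0.954, and -0.16 without lox/lox 1). Among 4 tested plasma iron carriers and systemic sensors, 3 means were higher and 1 was lower. Lcn2, a siderophore-binding protein, had the largest difference at -0.86 with 10.2, 2.66 and 2.40 CPM in lox/lox and 3.35, 2.24, 1.38 and 0.99 CPM in I-KO, where lox/lox 1 stood far above the rest (limma adjusted p = 0.954). Without that library the difference was -0.30. Among 8 genes of mitochondrial iron, heme synthesis and iron-sulphur assembly, 3 means were higher and 5 lower, and Alas1, the first enzyme of heme synthesis, had the largest difference at 0.11 (limma adjusted p = 0.954), which was 0.022 without lox/lox 3 and 0.19 without lox/lox 1.

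**Figure D4:**
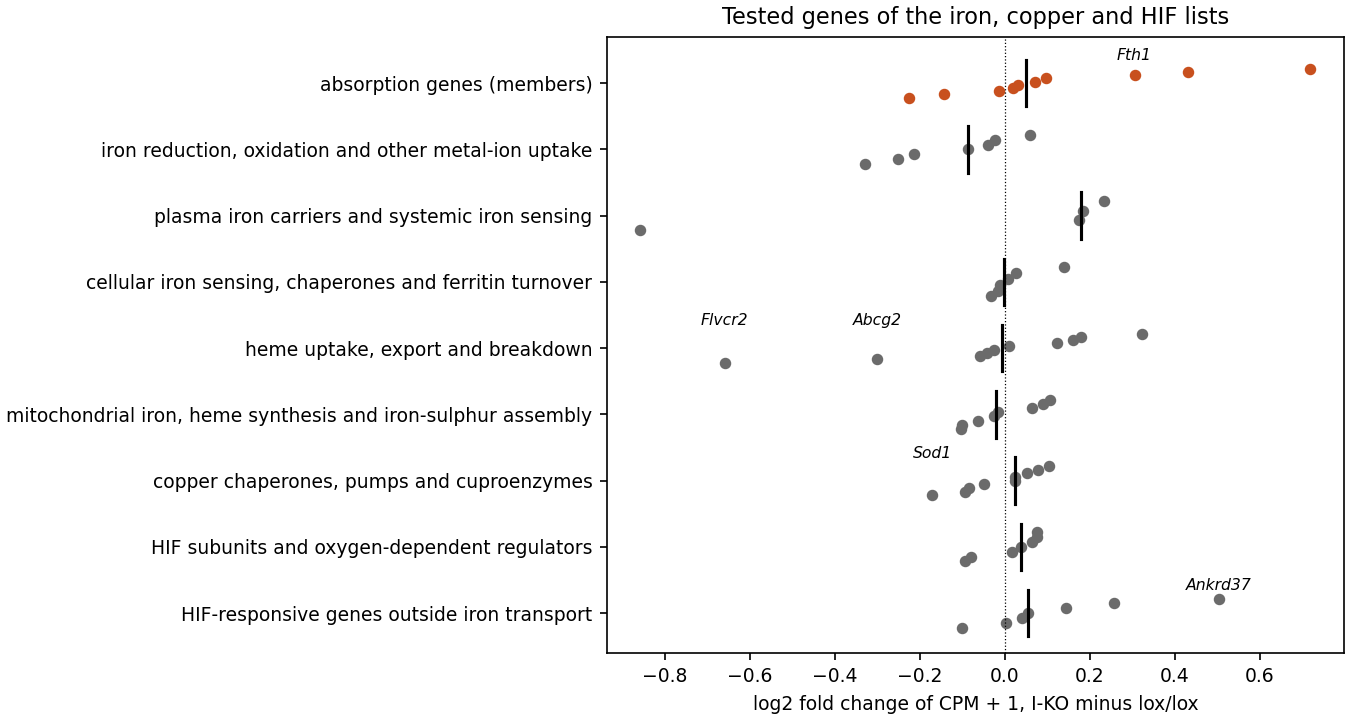
Log2 fold change of CPM + 1 (horizontal axis, I-KO minus lox/lox) of every tested gene of the 10 absorption genes (orange) and of 8 lists of other iron, copper and HIF genes (grey), with the median of each list as a black bar. The medians lie between -0.087 and 0.18, and named points are those with an unadjusted p below 0.05, with Mfsd7c shown as Flvcr2.

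The metallothioneins, which bind copper as well as zinc, differed between the genotypes, unlike any of the 10 genes by the same test. Mt1 rose from 34.3 ± 10.9 CPM in lox/lox to 265 ± 43.1 CPM in I-KO (SD, 3 and 4 libraries), which is 2.96 on the log2 scale (limma adjusted p = 0.0015). Mt2 rose from 4.72 ± 2.26 to 80.1 ± 13.3 CPM, which is 3.90 (limma adjusted p = 0.0015).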

How the data were processed

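Duodenal RNA of 3 lox/lox and 4 I-KO libraries was extracted with TRIzol and sequenced as 100 base single reads after TruSeq stranded mRNA preparation. The authors deposited 1 table of normalized signal values, in which the reads of each of 14795 genes are given as CPM of an adjusted library size, to 2 decimals. The submitters' processing notes name FastQC 0.11.2, TopHat2 2.0.13, Picard 1.80, HTSeq 0.6.1, edgeR and mm10. A strand setting is not given in the sources used here. The columns total 969589 to 1098618, and 1 line without a gene name was dropped. The methods paragraph on sequencing describes jejunum and names the duodena at its end.

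Groups and replicate numbers came from the labels. The main test was limma 3.58.1 (R 4.3.3) on log2(CPM + 1), with a single genotype term, for the 13399 genes whose CPM exceeded 1 in 3 or more libraries. P-values were adjusted by Benjamini-Hochberg, with a threshold of 0.05. A fold change on this scale understates that of low genes. Single genes were compared in CPM by exact two-sided permutation of the 7 libraries into 3 and 4, whose smallest p is 0.0286. Low values lie on steps of 0.0393 to 0.0530 CPM, the value of 1 read, from which depth was estimated. The share of low values within 0.1 of a step of a whole number was below 95% in 5 libraries, so no count model was run. Within the rounding to 2 decimals, that share was 95.3% to 100%. Library pairs of a group differed by more than sampling noise (the lowest ratio of chi-square to its degrees of freedom was 13.9). The Poisson interval covers counting error only. Coordinates, exon lengths and transcripts came from GENCODE M21 (GRCm38). Python 3.11.15, numpy 2.4.6, pandas 2.3.3, scipy 1.17.1 and matplotlib 3.10.9 were used.

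All 10 genes are described, together with genes of 8 iron, copper and HIF lists that passed an unadjusted p of 0.05 or had the largest difference of their list, and always Hif1a, Hmox1, Ppara, Mt1 and Mt2. Markers of 9 cell classes were summed. The genes and lists were chosen with earlier results of these data known. The alternatives were a pseudocount of 0.5, no filter, column totals, median-of-ratios size factors, an intensity trend, the replicate number as a block, each library left out, both libraries highest in acinar genes left out and, added after the data were seen, sample quality weights.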

Additional observations from a re-analysis of the deposited data

Results flagged for a closer look

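In the 4 I-KO libraries, I-KO 1 stood apart from the other 3 in 4 of 33 quantities searched, by a gap that takes up more of the group's range than chance gives in 1 of 20 groups (1.65 such quantities would be found by chance). Its Fth1 level was 3914 CPM, where the others lay between 3426 and 3479. Its Hmox1 level was 4.93 CPM, where the others lay between 3.31 and 3.55. The summed pancreatic acinar markers were 396 CPM in I-KO 1 and 27.1 to 42.5 in the others. Of the Brunner gland and stomach markers the table held Tff2, which was 1.2 CPM in I-KO 1 and at most 0.05 in the others. The part of acinar or other tissue in the Fth1 and Hmox1 levels of I-KO 1 was not tested.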

How the results depend on the processing

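Of the 10 genes, 0 were called by limma under all 15 alternatives, with a smallest adjusted p of 0.625 (Fth1, sample quality weights), and 1 or 2 passed an unadjusted p of 0.05 except under an intensity trend, where 0 did. These were not always Fth1: without lox/lox 3 it was Tfrc, and without both libraries highest in acinar genes Cybrd1, whose log2 fold change was then 1.12. Cybrd1 passed beside Fth1 without lox/lox 1 or without lox/lox 2. Over all genes 3 to 5 were called, and 12 with sample quality weights. The count of the 10 genes with an exact permutation p under 0.05 fell from 1 to 0 under column totals, a scaling that moves the median of all genes to -0.032. Of the 7 relations, 0 passed after adjustment under any alternative run. The planned edgeR and DESeq2 tests were not run, since 5 libraries missed the limit set for low values within 0.1 of a whole-read step. Within the rounding to 2 decimals, 95.3% to 100% of the low values of a library did lie on whole reads.

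Several genes near 0, and Slc40a1 without lox/lox 3, changed sign on the log2 scale, and the cause was not tested. Under column totals Slc11a2 was -0.0062 and Epas1 -0.018. With sample quality weights Slc11a2 was -0.030, Heph 0.032 and Epas1 -0.014. Without both libraries highest in acinar genes Ftl1 was -0.0099 and Hmox1 -0.053. With 1 library left out, Slc11a2 ranged from -0.066 to 0.089, Slc40a1 from -0.046 to 0.73, Heph from -0.074 to 0.071, Ftl1 from -0.038 to 0.17, Epas1 from -0.042 to 0.080, Hif1a from -0.20 to 0.0087 and Ncoa4 from -0.077 to 0.28. The lowest values of Slc11a2, Slc40a1, Epas1 and Ncoa4 and the highest of Hif1a were those without lox/lox 3. Cybrd1 (0.12 to 1.04), Fth1 (0.20 to 0.39), Tfrc (-0.34 to -0.15), Slc31a1 (0.0063 to 0.15) and Atp7a (-0.19 to -0.095) kept their sign.

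The replicate numbers did not pair the libraries, as the deviations of same-numbered libraries from their group means correlated at -0.014 to 0.18. With the replicate number as a block, Heph was 0.0022, and the 10 genes again had 0 adjusted calls. Tfrc then passed an unadjusted p of 0.05 beside Fth1, and the calls over all genes went from 4 to 3. As I-KO 4 is the only library of its number, the block gives the same log2 fold changes as leaving I-KO 4 out. For these fold changes, the sign of Heph included, it is therefore no separate check. The lowest value among the 10 genes, Cybrd1 in lox/lox 3, rests on about 430 reads. Mfsd7c and Steap4, with values down to 1.01 and 0.67 CPM, rest on far fewer, and their counting error is not small.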
